A study of Mus musculus with 4 samples.

Results

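The genes described here carry and receive the insulin and insulin-like growth factor (IGF) signal: the ligand Igf1, the receptors Igf1r and Insr, the docking proteins Irs1 and Irs2 below them, and the secreted IGF binding proteins Igfbp2, Igfbp3, Igfbp4, Igfbp5 and Igfbp7. All gene probes that bear one of these 10 gene names on a mouse Agilent whole-genome array were taken. That gave 19 of 41174 gene probes and 9 of 27745 gene names, since no probe was named Irs2, whether by the array or through its accession. RNA of 3 kinds of cell was measured on 4 arrays with 2 colours. The green channel (Cy3) of each array held RNA of CGR8.8, a mouse embryonic stem (ES) cell line grown with 1000 IU/ml leukemia inhibitory factor (LIF). The red channel (Cy5) held mouse embryonic fibroblasts (MEFs) taken after several passages on 2 arrays, and an induced pluripotent stem (iPS) cell clone on the other two. The clone, also kept in LIF at 1000 IU/ml, was harvested 30 days after transduction. The labels name neither the factors transduced nor the strain or age behind the MEFs. The clone is 1 clone, and the 2 arrays of a group are called biological replicates with no word on separate cultures, so p-values reflect how far these samples vary, which may in part be technical.

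IGF1 and IGF2 bind the receptor tyrosine kinase encoded by Igf1r, and insulin binds the related receptor encoded by Insr. The active receptors phosphorylate IRS docking proteins, which recruit PI3 kinase and so switch on Akt and mTOR and restrain the Foxo transcription factors. IGF binding proteins hold IGFs in extracellular fluid, prolong their life and keep them from or present them to the receptor, and Igfbp7 is a distant relative with low affinity for IGFs that also binds insulin. In fibroblasts the axis drives growth, and ES and iPS cells use it for proliferation and survival.

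The probes are 60 bases long, and several genes have more than 1, named here A, B, C and D. The sequences below are those of genes whose probes gave different ratios, or whose levels differed most between the cells. The first 30 bases are given, except for Igf1 probe C, Igfbp2 and Igfbp3 probe A, which are shown whole. All were taken from the array files and stand 5′ to 3′ as given there, with no part marked.
Irs1 probe A: aatgaatgcttaaaacaaggctaaaaagag
Irs1 probe B: tacccccaattctgtctggtacttagaatt
Igf1 probe C: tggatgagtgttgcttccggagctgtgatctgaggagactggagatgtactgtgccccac
Igf1r probe A: caacacttaatagcaacaggacactcgaga
Igf1r probe B: gtagtcgttgacgaagctctggtttacaag
Igf1r probe C: ctaggacttcttcatgggtctctcagttct
Igf1r probe D: tttctcaacaggcgaacgcaggcttagagt
Igfbp2 probe: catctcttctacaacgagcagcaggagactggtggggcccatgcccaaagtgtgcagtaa
Igfbp3 probe A: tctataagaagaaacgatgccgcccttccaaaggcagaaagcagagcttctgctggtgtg
Igfbp5 probe A: aatagaattttccttggtgtctcccatcta
Igfbp5 probe B: cacatcacatattactgtagctctctatag
Igfbp7 probe: taacccactaacactttattacagccagct
The array annotation places its probes on the genome build mm8. Irs1 probe A lies at chr1:82116013-82116072 and probe B at chr1:82112141-82112200, both on the minus strand and 3812 bases apart. Igf1r probes A (chr7:68100183-68100242) and C (chr7:68101127-68101186) are separated by 884 bases, and probe D (chr7:68061142-68061201) lies 38981 bases before probe A. Igfbp5 probe A lies at chr1:72793999-72794058 and probe B at chr1:72791462-72791521. The single Igfbp7 probe lies at chr5:78424105-78424164 and the Igfbp2 probe at chr1:72785310-72785369. Igfbp3 probe A covers chr11:7108469-7109478, a span of 1010 bases for a 60-base probe, so it crosses at least 1 intron. Exons and UTRs were not assigned, since no mm8 annotation was used here. The GC content of the 60 bases was 36.7% for Irs1 probe A and 35% for probe B.

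The share of gene probes well above background was 61% to 63.4% per channel. Log2 ratios correlated at 0.989 between the MEF arrays and 0.992 between the iPS arrays across tested probes, which are not independent. All 4 arrays lay on 1 slide read in 1 scan, so place on the slide and group cannot be told apart. The cells were checked against marker genes. All 7 fibroblast markers rose in MEFs over ES cells and all 7 pluripotency markers fell. In iPS cells over ES cells, 4 pluripotency markers rose, and 2 fell, Cdh1 and Pou5f1. Each value below is a log2 ratio with limma's standard error after the ± sign, from 2 arrays in each group. A probe was called where it changed at least 2-fold and its p, adjusted by Benjamini-Hochberg over all tested probes, was under 0.05. The dyes were not swapped, so a dye effect particular to a probe is part of each ratio over ES cells and drops out when iPS cells are set against MEFs. In bulk RNA, fewer cells of a type and less RNA per cell cannot be told apart.

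Of the 18 probes tested, 6 were higher in MEFs than in ES cells, where 12.6% of all 27701 tested probes were, and 4 were lower, against 12.4%. The median ratio was 0.32, and -0.01 over all probes. The higher ones were both tested Igf1 probes and single probes of Igf1r, Irs1, Igfbp5 and Igfbp7. Both Igf1 probes and the Insr probe passed the background filter through MEFs alone, the group where they are highest. The filter thus favoured the direction of the Igf1 calls, here and in iPS cells over MEFs, and these are descriptions only. The lower ones were Igfbp2 and all 3 probes of Igfbp3. In iPS cells over ES cells no probe was called higher by limma (0 also at an unadjusted p under 0.05; background 7.96%), and 11 were lower, against 10.7% of all probes, with a median of -1.45 (-0.01 over all). In iPS cells over MEFs 12 were lower (background 17.6%) and 1, Igfbp2, was higher (15.2%), with a median of -1.85 (0.02 over all). The probes are no independent units, since up to 4 share a gene, and both ratios over ES cells rest on the same ES line.

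**Figure D1:**
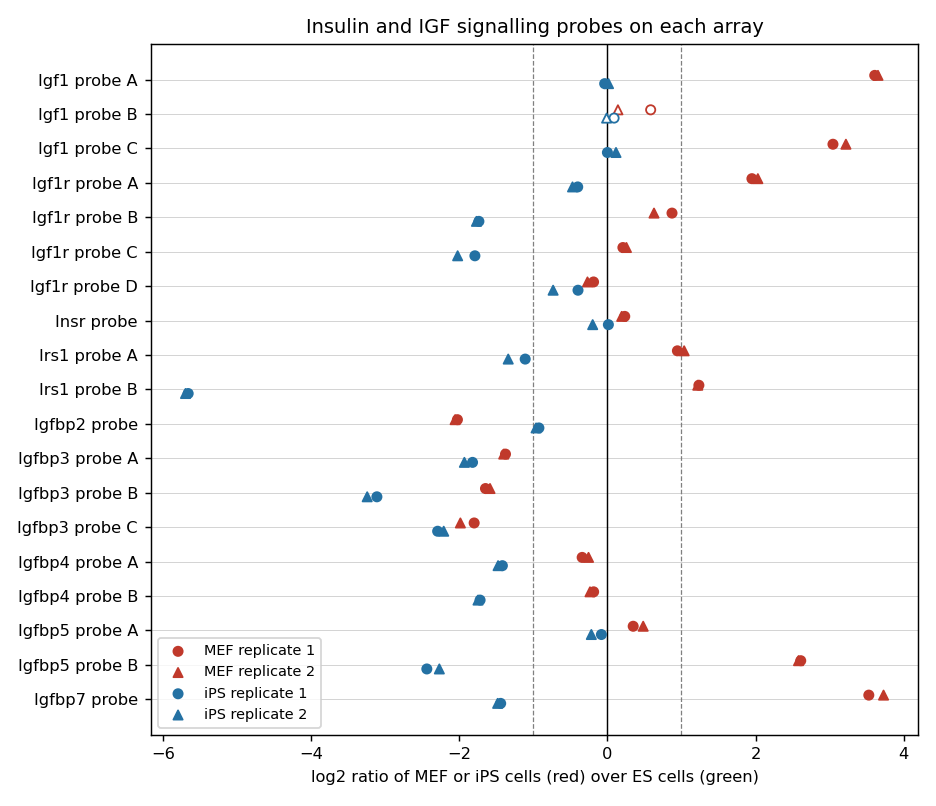
Log2 ratio of red over green on each of the 4 arrays for the 19 probes; each point is 1 array (MEF red, iPS blue, replicate 1 a circle, replicate 2 a triangle), open points mark the untested Igf1 probe B, and dashed lines mark 2-fold. The iPS points lie below the MEF points at most probes, by most at Irs1 probe B, where they sit at -5.66 and -5.70, and the reverse holds at Igfbp2.

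The calls against MEFs depended on how the background was corrected. On the array of MEF replicate 1, 14 spots had a local background above 500, all of them marked as outliers. With the background model fitted over all spots, the number of probes called in MEFs over ES cells went from 6 higher and 4 lower to 0 and 0 (2 and 2 at an unadjusted p under 0.05). That setting takes in the marked spots of every array, and the part of the 14 spots in the change was not tested. For the insulin and IGF genes, the values under that setting stand beside the results below where a call ended. The authors' deposited log10 ratio, turned to log2, put several ratios farther from 0: 5.85 for Igf1 probe A in MEFs, -4.85 (iPS cells not well above background) and -6.43 for Irs1 probes A and B in iPS cells over ES cells, and -7.27 for Igfbp5 probe B in iPS cells over MEFs. Under median centring in place of loess, Irs1 probe B stood at 1.84 and Igfbp7 at 4.39 in MEFs over ES cells.

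Igf1, the ligand, was high in MEFs, dim in ES cells and not well above background in iPS cells. On the log2 scale, Igf1 probe A read 3.61 and 3.65 on the MEF arrays and -0.04 and 0.01 on the iPS arrays. The MEF values lay far above the iPS values, which were near 0, with no overlap. In MEFs over ES cells the ratio was 3.63 ± 0.0475, a 12.4-fold rise (adjusted p = 4.11e-09). Probe C read 3.04 and 3.22 on the MEF arrays and 0.00 and 0.12 on the iPS arrays, which gave 3.13 ± 0.0607 (8.77-fold, adjusted p = 1.24e-08). ES and iPS cells were both not well above background on the iPS arrays with either probe, so their order is not known. Both probes entered the test through MEFs alone. Set directly against MEFs in red, the iPS level was at least 15.3-fold lower by probe A and at least 11.7-fold lower by probe C. These bounds, here and below, come from normalized channel levels, with the dim group put no lower than the dimmest signal that passed the background test, and are open to dye bias. They allow for the detection limit only, not for the spread between arrays or for other settings, so they are no confidence limits. The fit, through ES cells, put the folds lower, at 12.5 and 8.42. With the background fitted over all spots, the rise stood at 1.88 by probe A and 1.65 by probe C (both adjusted p = 0.357), and iPS cells over MEFs at -1.89 and -1.59 (adjusted p = 0.387 and 0.406). Probe B, which lies 50976 bases upstream of probe C, was above background on only 1 MEF array (ratios 0.58 and 0.14) and was not tested.

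Of the receptors, Igf1r was lower in the iPS clone than in MEFs by 3 of its 4 probes, while its ratio to ES cells depended on the probe. Probe B read 0.87 and 0.63 on the MEF arrays and -1.73 and -1.77 on the iPS arrays. All MEF values were above 0 and all iPS values below it. The MEF ratio of 0.75 ± 0.0652 did not reach 2-fold, and the iPS ratio of -1.75 ± 0.0652 was a 3.37-fold fall (adjusted p = 3.07e-07). Probe C gave 0.23 ± 0.0644 in MEFs, under 2-fold, and -1.91 ± 0.0644 in iPS cells, a 3.75-fold fall. Probe A had the same signs but passed 2-fold on the other side, with a rise of 1.99 ± 0.05 in MEFs (1.95 and 2.03 on the arrays, 3.98-fold) and -0.44 ± 0.05 in iPS cells, under 2-fold. Probes A and C thus differed by 1.76 for MEFs and by 1.47 for iPS cells, both against ES cells, yet by only -0.29 in iPS cells over MEFs. That last comparison put Igf1r in iPS cells at -2.43 ± 0.0707 (A), -2.50 ± 0.0922 (B) and -2.14 ± 0.0911 (C) against MEFs, or 5.38-, 5.67- and 4.40-fold lower. A dye effect cancels in it, as does any difference particular to ES cells, and why the probes differ was not tested. Probe D was not called anywhere (-0.23, -0.57 and -0.34). When all spots entered the background fit, probe A stood at 1.07 in MEFs over ES cells (adjusted p = 0.357) and -1.51 in iPS cells over MEFs (adjusted p = 0.252), whereas probes B and C kept their falls.

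The insulin receptor, Insr, was near the limit of detection. Its probe was well above background in MEFs alone, where the arrays read 0.23 and 0.19. The ratio was 0.21 ± 0.0615, and MEFs were at least 1.16-fold above ES cells and at least 1.23-fold above iPS cells, with no call at 2-fold. ES and iPS cells gave no level, so a difference between them was not detectable at this signal.

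Irs1, the docking protein that links both receptors to PI3 kinase, showed the steepest loss in the iPS clone among these genes by its probe B. The array assigns probes A and B to different transcript records, and only that of probe A is a RefSeq transcript. Irs1 probe B read 1.24 and 1.22 on the MEF arrays and -5.66 and -5.70 on the iPS arrays. The replicates lay within 0.1 of each other while the groups stood on opposite sides of 0. The level rose by 1.23 ± 0.0463 in MEFs over ES cells (2.34-fold, adjusted p = 2.43e-07) and fell by 5.68 in iPS cells over ES cells (± 0.0463, 51.2-fold, adjusted p = 3.15e-09). Between the clone and MEFs it was -6.91 ± 0.0655, or 120-fold (adjusted p = 2.82e-09). The iPS signal of probe B was still well above background on both arrays. Probe A read 0.94 and 1.04 in MEFs, 1.99-fold and so just short of a call, and -1.11 and -1.34 in iPS cells. The iPS level was not well above background with it, so the clone was at least 2.21-fold below ES cells and at least 4.37-fold below MEFs, bounds that probe B's folds exceed. In MEFs over ES cells, where both probes were measured, they differed by -0.24. With the background fitted over all spots, the MEF rise by probe B was 1.13 with an adjusted p of 0.0748, and probe A's falls in iPS cells ended as calls (adjusted p = 0.0633 and 0.0833 against ES cells and MEFs), while probe B's falls held at -5.68 and -6.80.

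**Figure D2:**
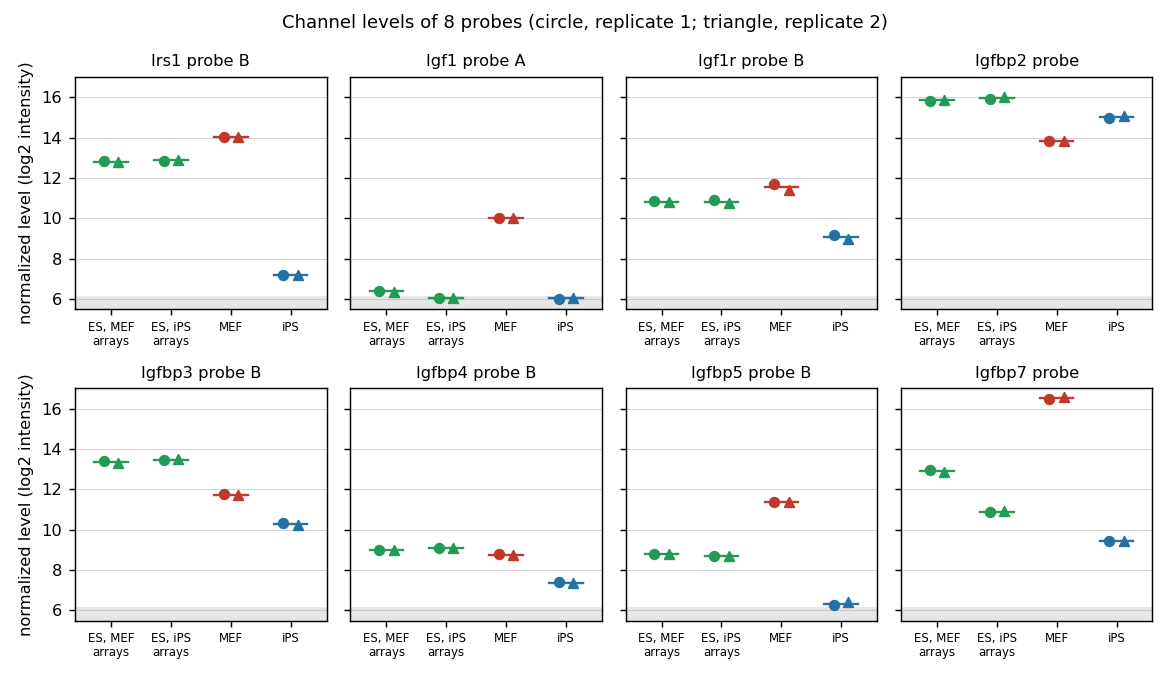
Normalized log2 intensity of 8 probes in each channel of each array: ES cells (green) on the MEF and on the iPS arrays, MEFs (red) and iPS cells (blue). Short lines are means of the 2 arrays. The lowest signal well above background was found for each channel of each array, and the grey band ends at the highest of these, 6.119. A level inside the band can thus be well above background on its own array. Irs1 probe B was at 7.2 on both iPS arrays and at 14.05 and 14.01 in MEFs, and the ES level of Igfbp7 differed between the MEF and the iPS arrays.

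The binding proteins fell into different orders across the cells. Igfbp2, a binding protein typical of fetal tissue, was highest in ES cells. It read -2.02 and -2.06 on the MEF arrays and -0.93 and -0.96 on the iPS arrays. Both groups lay below ES cells on every array without overlapping each other. It fell by 2.04 in MEFs (± 0.0466, 4.11-fold, adjusted p = 2.34e-08) and stood at -0.94 ± 0.0466 in iPS cells, 1.92-fold and not called. Median centring put these ratios at -1.26 and -0.11. iPS cells exceeded MEFs by 1.1 ± 0.0659 (2.14-fold, adjusted p = 3.28e-06). Fitting the background over all spots gave a MEF ratio of -2.46 (adjusted p = 0.0746) and 1.52 for iPS cells over MEFs (adjusted p = 0.0725), so neither was called.

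Igfbp3, the main IGF carrier of serum and a product of many fibroblast cultures, was lower than in ES cells in both other cell kinds. Probe B read -1.65 and -1.58 in MEFs and -3.11 and -3.24 in iPS cells. ES cells were highest, MEFs in between and iPS cells lowest, with no overlap. It fell by 1.62 in MEFs (± 0.0534, 3.06-fold) and by 3.18 in iPS cells (± 0.0534, 9.05-fold), and iPS cells over MEFs stood at -1.56 ± 0.0755 (2.95-fold lower). Probes A and C fell as well in MEFs (-1.39 and -1.89) and in iPS cells (-1.88 and, for C, at least 4.76-fold lower). Between iPS cells and MEFs these probes gave -0.49 and -0.36, both under 2-fold. With iPS cells not well above background, probe C put them at least 1.22-fold below MEFs. All 3 probes thus put iPS cells below MEFs, and the 2-fold call rests on probe B. With the background fitted over all spots, the MEF falls stood at -0.71, -1.20 and -1.0 by probes A, B and C, at adjusted p of 0.357, 0.216 and 0.357, and probe C's fall in iPS cells at an adjusted p of 0.061.

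Igfbp4, a binding protein cleaved by the protease Pappa, was lower in iPS cells by both probes. Probe A read -0.34 and -0.26 in MEFs and -1.42 and -1.48 in iPS cells, and probe B -0.19 and -0.24 in MEFs and -1.72 and -1.75 in iPS cells. In MEFs neither was called (-0.30 ± 0.0498 and -0.21 ± 0.0469). In iPS cells over ES cells both fell, by 1.45 (2.73-fold) and 1.73 (3.32-fold), and in iPS cells over MEFs by 1.15 and 1.52.

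Igfbp5, which binds matrix as well as IGFs, was high in MEFs and low in iPS cells. Probe B read 2.61 and 2.58 on the MEF arrays and -2.44 and -2.27 on the iPS arrays. MEFs lay above ES cells and iPS cells below them on every array. It rose by 2.60 ± 0.0562 in MEFs (6.04-fold, adjusted p = 1.87e-08) and fell by 2.35 in iPS cells (± 0.0562, 5.11-fold), a distance of -4.95 ± 0.0794 between iPS cells and MEFs (30.9-fold). The iPS signal was well above background on 1 of the 2 iPS arrays. Probe A was dim: it gave 0.42 ± 0.0584 in MEFs, and in iPS cells, not well above background, it set the level at least 1.11-fold below ES cells and at least 1.39-fold below MEFs. With the background fitted over all spots, probe B stood at 1.42 in MEFs (adjusted p = 0.357), -2.35 in iPS cells (adjusted p = 0.0763) and -3.77 between them (adjusted p = 0.0815).

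Igfbp7, a secreted protein of vessels and stroma, had the highest ratio in MEFs together with Igf1. It read 3.53 and 3.73 on the MEF arrays and -1.44 and -1.48 on the iPS arrays. The groups lay on opposite sides of ES cells. It rose by 3.63 ± 0.0598 in MEFs (12.4-fold, adjusted p = 7.07e-09) and fell by 1.46 in iPS cells (± 0.0598, 2.75-fold, adjusted p = 5.03e-07), or -5.09 ± 0.0846 for iPS cells over MEFs (34.1-fold). When all spots entered the background fit, the rise in MEFs was 3.44 with an adjusted p of 0.0514, and the iPS falls held.

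The ES signal of Igfbp7 was not the same on the MEF and the iPS arrays, which sets how far both of its ratios can be read. The normalized log2 level of ES cells was 12.94 and 12.84 in green on the MEF arrays and 10.89 and 10.91 on the iPS arrays, a difference of 1.99, or 3.97-fold. A difference of at least 2-fold in this direction was found at 25 of the 27701 tested probes (0.0902%). In red, MEFs read 16.47 and 16.57 and iPS cells 9.45 and 9.42. Set directly against each other, these red levels differed by 7.08 log2 (135-fold), where the ratio through ES cells gave 5.09. The MEF red level lay 5.62 above the ES green level of the iPS arrays, where the ratio on the same arrays was 3.63. Igf1 was the other gene with such a shift: its ES green level was 0.33 (probe A) and 0.48 (probe C) higher on the MEF arrays, and it was well above background there alone. Probe A of Igf1 is printed 10 times on each array. Its unmarked green spots had a median mean intensity of 34.8 and 33.5 on the MEF arrays and 22.05 and 21.85 on the iPS arrays, while red was 1445 and 1190 against 55.65 and 60.6. The remaining probes shifted by -0.12 to 0.10. Whether ES RNA on both kinds of array came from the same culture is not stated in the labels.

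**Figure D3:**
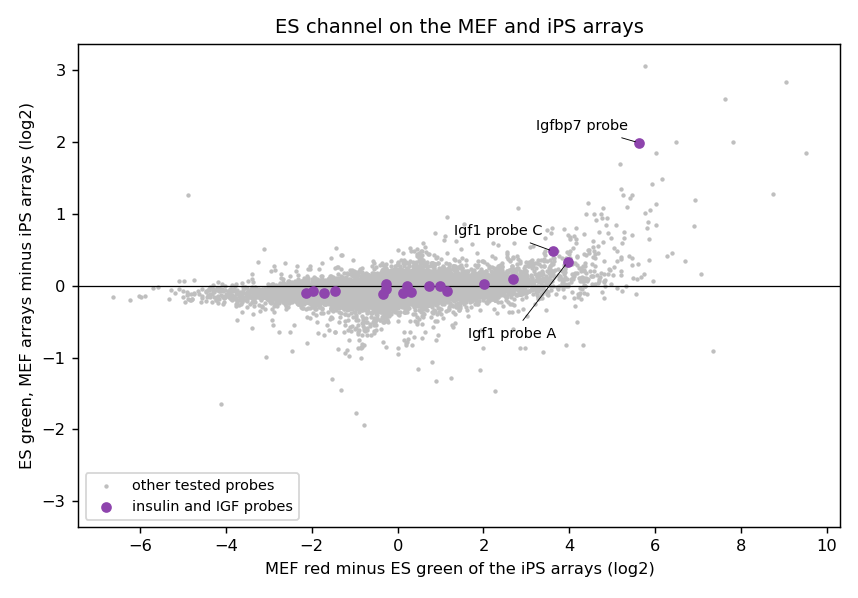
Difference of the normalized ES green level between the MEF and the iPS arrays (y axis, log2) against the MEF red level relative to the ES green level of the iPS arrays (x axis, log2); grey points are tested probes and purple points the insulin and IGF probes, 1 point each. The Igfbp7 probe lies at 5.62 and 1.99, and the Igf1 probes at 0.33 and 0.48 on the y axis. The x and y values share the ES green level of the iPS arrays.

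The difference was seen in the array as a whole at probes much brighter in one red sample than in ES cells. Of 59 tested probes with a MEF red level at least 32-fold above the ES green level of the iPS arrays, 21 (35.6%) had an ES level at least 2-fold higher on the MEF arrays, with a median shift of 0.65. Among the 27642 others 4 did, with a median of -0.07. In the reverse direction, 28 probes with an iPS red level at least 32-fold above the ES green level of the MEF arrays had a median shift of 0.63 towards the iPS arrays, and 0.07 among the rest. The probes were chosen with the same ES level that enters the shift, so these are descriptions only. The part of this in the values of Igf1 and Igfbp7 was not tested.

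Other genes of the pathway were followed in a list of 58, of which 53 were measured, 1 probe per gene. In MEFs over ES cells 13 rose, against 13.9% of the 18463 genes, and 8 fell, against 13.9% (median 0.18, -0.01 over all genes). In iPS cells over ES cells 5 rose (9.08%) and 9 fell (12.1%), with a median of -0.14. In iPS cells over MEFs 7 rose (17%) and 15 fell (19.1%), with a median of -0.42. Neither the list as a whole nor any of its groups was tested. With the background fitted over all spots, none of the calls in MEFs over ES cells was made: 0 of the 53 genes rose and 0 fell by limma (9 and 4 at an unadjusted p under 0.05), and in iPS cells over MEFs 2 rose and 5 fell, so the values below hold for the fit over unmarked spots.

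Among ligands and receptors, 3 of 6 measured genes rose in MEFs, where 13.9% of all genes did. Igf2, the imprinted fetal growth factor, read 2.98 and 3.28 on the MEF arrays and -3.21 and -3.18 on the iPS arrays. It rose by 3.13 ± 0.0740 and fell by 3.20 (± 0.0740) against ES cells, so that iPS cells over MEFs stood at -6.33 ± 0.105; its other probe gave 3.35, -3.31 and -6.66. Ghr, the growth hormone receptor that drives Igf1 transcription in liver, rose by 1.36 ± 0.0578 in MEFs and fell by 4.38 (± 0.0578) in iPS cells. Its 4 other probes gave 0.41 to 1.87 in MEFs. In iPS cells they gave -2.47 and -3.45 where the clone was above background, and at least 1.43- and 7.76-fold lower where it was not. Igf2r, which clears IGF2, rose by 1.72 ± 0.0528 in MEFs and stood at 0.28 ± 0.0528 in iPS cells. Igfals, the acid-labile subunit of the circulating IGF complex, was not well above background in MEFs and was at least 2.08-fold higher in iPS cells.

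Of 6 measured binding and binding-protein-cleaving genes, 3 rose and 1 fell in MEFs (13.9% and 13.9% of all genes). Pappa, the protease that cleaves Igfbp4, read 3.36 on both MEF arrays and -2.80 and -2.63 on the iPS arrays. It rose by 3.36 ± 0.0564 and fell by 2.72 (± 0.0564), and stood at -6.08 ± 0.0798 between iPS cells and MEFs, with an ES green level 0.65 higher on the MEF arrays. Its second probe gave 2.82 in MEFs and, with iPS cells not well above background, at least 1.85-fold less in iPS cells than in ES cells and at least 14.6-fold less than in MEFs. Stc2, an inhibitor of Pappa, fell by 2.36 in MEFs (± 0.0476) and fell by 3.35 in iPS cells (± 0.0476). Htra1, a secreted protease that cleaves binding proteins, rose by 2.73 ± 0.0464 in MEFs and 2.59 ± 0.0464 in iPS cells.

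Among 13 measured adaptors and inhibitors at the receptor, 2 rose and 2 fell in MEFs (13.9% and 13.9% of all genes). Grb14, an adaptor that inhibits the insulin receptor, rose by 4.13 ± 0.0488 in MEFs and stood at 0.41 ± 0.0488 in iPS cells. Its relative Grb10, imprinted and likewise inhibitory, stood at 0.56 ± 0.0475 in MEFs and fell by 4.06 (± 0.0475) in iPS cells, with -1.72 and -2.84 by its other probes. Gab1, a docking protein that acts beside the IRS proteins, fell by 2.69 in MEFs (± 0.0465) and stood at 0.55 ± 0.0465 in iPS cells, 3.24 ± 0.0658 above MEFs.

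In the PI3 kinase, Akt and Foxo group, 4 of 18 measured genes rose and 3 fell in MEFs (13.9% and 13.9% of all genes). In iPS cells over ES cells 4 rose and 1 fell (9.08% and 12.1% of all genes). Inpp5d, a phosphatase of the PI3 kinase product best known in blood cells, read -1.98 and -2.13 on the MEF arrays and 3.87 and 3.95 on the iPS arrays. It fell by 2.06 in MEFs (± 0.0558) and rose by 3.91 ± 0.0558 in iPS cells. Akt1, the kinase itself, rose by 1.88 ± 0.0640 in MEFs, and iPS cells over MEFs stood at -2.60 ± 0.0905, with 1.61 and -1.73 by a second probe. Pik3r3, a regulatory subunit of PI3 kinase, rose by 2.00 ± 0.0477 in MEFs and 1.32 ± 0.0477 in iPS cells. Its 2 other probes stayed under 2-fold but were dim, with ES cells well above background on 1 and 0 of the 2 MEF arrays. Trib3, a stress-induced pseudokinase reported to bind Akt, fell by 2.15 in MEFs (± 0.0514) and fell by 2.65 in iPS cells (± 0.0514).

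Of the 10 measured genes of the mTORC1 branch, 1 rose and 2 fell in MEFs (13.9% and 13.9% of all genes). Ddit4, which restrains mTORC1 under stress, fell by 1.38 (± 0.0486) in MEFs and by 1.79 (± 0.0486) in iPS cells. Rictor, a subunit of the sister complex mTORC2, rose by 1.32 ± 0.0804 in MEFs, with at least 1.23-fold by its second probe. Between iPS cells and MEFs it stood at -1.69 ± 0.114, and at -0.44 by the second probe, under 2-fold. Tsc1, part of the complex that inhibits Rheb, exceeded MEFs in iPS cells by 1.02 ± 0.0837 on its brightest probe, and 3 other probes stayed under 2-fold, at -0.38 to 0.71.

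**Figure D4:**
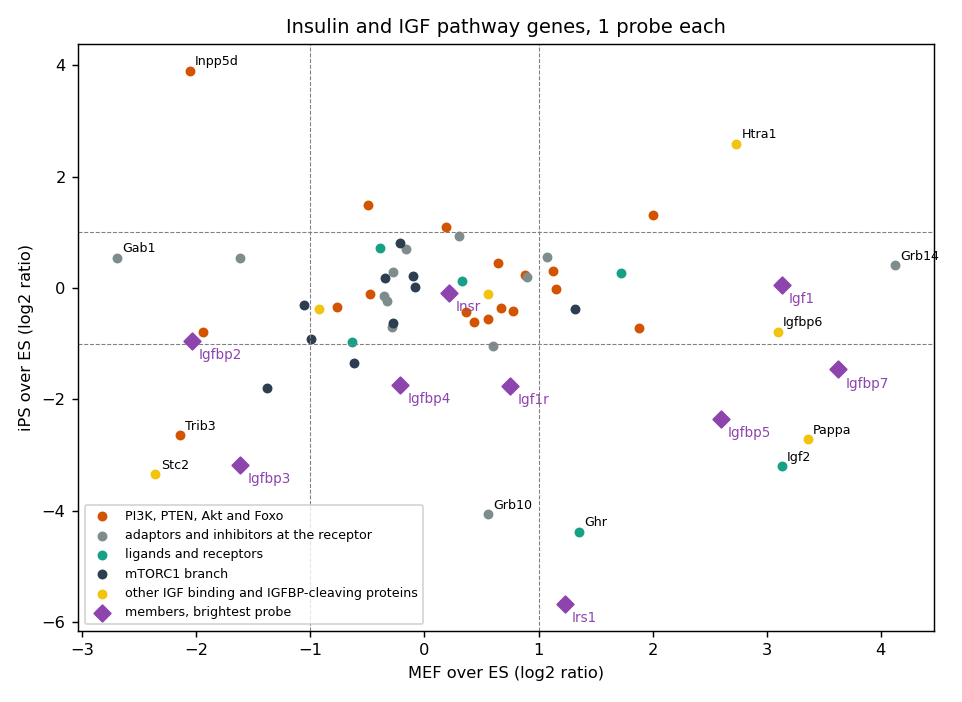
Log2 ratio of MEFs over ES cells (x axis) and of iPS cells over ES cells (y axis) for the 53 measured pathway genes (circles, coloured by group) and for the 9 insulin and IGF genes (purple diamonds), 1 probe per gene, with dashed lines at 2-fold. Irs1 lies at 1.23 and -5.68, Igf2 at 3.13 and -3.20, and Inpp5d at -2.06 and 3.91; both axes share the ES line.

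Markers of other cells moved with some of these results. The summed level of the 7 fibroblast markers was 474132 to 489714 in MEFs and 2007 to 2013 in iPS cells. In ES cells it was 20999 to 21855 on the MEF arrays and 31497 to 32412 on the iPS arrays, where all 7 were well above background, against 4 of 7 in iPS cells. Of the 7 fibroblast markers, 6 fell in iPS cells over ES cells, and Thy1 was not called (0.41). Genes such as Irs1, Igfbp5, Igfbp7 and Igf2 are named here for being higher in MEFs and lower in iPS cells than in ES cells. They are lowest in iPS cells by that choice, and nothing can be drawn from the match with the fibroblast sum. Igfbp3 was lower in MEFs than in ES cells and lowest in iPS cells. Of the 18 tested probes, 11 were called lower in iPS cells than in ES cells (10.7% of all tested probes). Against MEFs, 12 were called lower (17.6%). Of 8 macrophage markers, 3 rose in MEFs and 1, Cd68, fell. Their summed level was 7759 to 8244 in MEFs, 1131 to 1312 in iPS cells and 1666 to 1765 in ES cells; the largest rise was Lyz2, at 4.87, whose ES level was 1.14 higher on the MEF arrays. Of 6 endothelial markers 4 were tested. In MEFs 1, Emcn, rose (5.06) and 1, Kdr, fell (-1.55). Emcn was not well above background in iPS cells and passed the filter through MEFs alone. In iPS cells over ES cells Pecam1 and Tek rose (2.08 and 1.01) and Kdr fell (-4.10). The defining Cdh5 and Tie1 were never well above background in red. The 6 endothelial markers summed to 3909 to 4127 in MEFs, 1051 to 1066 in iPS cells and 2667 to 2719 in ES cells. Summed levels of the 6 skeletal muscle markers were 31640 to 32339 in MEFs, 1561 to 1585 in iPS cells and 15327 to 16995 in ES cells. Acta1 was by far the brightest of them (14.84 and 14.87 log2 in MEFs), so the sums in MEFs and ES cells are mostly its level. It was not called in MEFs over ES cells (0.97). Of the 5 tested, 3 were higher in MEFs. In iPS cells over ES cells 1, Myh3, rose (1.68) and 2 fell. Ckm was never above background in red. The 6 primitive endoderm markers summed to 3578 to 3695 in MEFs, 1402 to 1407 in iPS cells and 1779 to 1885 in ES cells, with Gata4 never above background in red. They moved both ways in MEFs: Dab2 (2.13) and Gata6 (1.22) rose, and Foxa2 (-1.97) and Sox17 (-1.32) fell. The part of these cells in the results was not tested.

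Genes with the most similar pattern were found by the Euclidean distance over the log2 ratios of the 4 arrays, against the brightest probe of each gene. Igfbp7 (3.63 and -1.46 against ES cells) was closest to Lgals3bp, at a distance of 0.0632 with 3.61 and -1.45, and to Aebp1 at 0.272. Igfbp5 was closest to Ecm1 (0.177), an extracellular matrix protein, and Syde1 (0.267). Irs1 had no close match: the nearest were Has2, a hyaluronan synthase, at 0.665 and Anxa3 at 1.18. Igf1 lay near Ifi205 (0.153) and Gm2115 (0.157), and Igf1r near Tmem106b (0.192) and Mmgt1 (0.215). Igfbp2 lay near Asns, asparagine synthetase (0.111), and Phox2a (0.115), and Igfbp4 near Rai1 (0.0417) and Nt5c (0.114). Igfbp3 was nearest to Zfp608 (0.211) and Bhlhe40 (0.404), and the dim Insr to AK131168 (0.0682) and Fmo5 (0.0723). With 4 arrays, such distances describe the arrays only.

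The promoters of Irs1, Igfbp5 and Igfbp7 are shown because each was higher in MEFs and lower in iPS cells than in ES cells by at least 1 probe. They are the 250 bases before the RefSeq start on GRCm38.p6, at chr1:82291440-82291689 (Irs1), chr1:72874866-72875115 (Igfbp5) and chr5:77408046-77408295 (Igfbp7), all read on the minus strand. Capitals mark the GC box, GGGCGG, and its reverse complement.
Irs1 promoter: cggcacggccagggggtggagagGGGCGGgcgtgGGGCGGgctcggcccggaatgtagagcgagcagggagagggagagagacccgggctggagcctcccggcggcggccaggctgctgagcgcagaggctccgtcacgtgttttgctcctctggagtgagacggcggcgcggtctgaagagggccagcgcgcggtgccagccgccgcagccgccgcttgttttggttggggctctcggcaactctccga
Igfbp5 promoter: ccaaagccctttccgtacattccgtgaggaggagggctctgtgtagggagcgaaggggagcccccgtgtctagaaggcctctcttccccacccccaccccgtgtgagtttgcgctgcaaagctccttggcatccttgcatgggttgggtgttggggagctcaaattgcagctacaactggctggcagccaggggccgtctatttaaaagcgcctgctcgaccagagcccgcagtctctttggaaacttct
Igfbp7 promoter: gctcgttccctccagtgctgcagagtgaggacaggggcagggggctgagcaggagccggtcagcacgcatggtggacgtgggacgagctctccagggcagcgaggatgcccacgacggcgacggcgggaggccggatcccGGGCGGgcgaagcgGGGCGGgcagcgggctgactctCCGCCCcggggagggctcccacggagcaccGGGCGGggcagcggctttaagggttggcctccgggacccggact
The GC box was found 2 times at Irs1, 4 at Igfbp7 and 0 at Igfbp5, and at least 1 stands in 32.7% of the 32851 promoters of the table. The TATA box TATAAA was in none of the 3 (12.4% of all promoters), nor was the forkhead motif TGTTTAC (3.17%), both searched on both strands. CpG dinucleotides numbered 28 at Irs1, 26 at Igfbp7 and 10 at Igfbp5. Among the other genes, Igf1r held 42 CpGs and 2 GC boxes, and Igf1 5 CpGs and 0 GC boxes. Of the 10 genes 9 were matched in the table; Insr was not. A match is a description, not a binding site.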

How the data were processed

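Total RNA of ES cells, MEFs and an iPS clone was measured on 4 arrays (1 µg RNA each, per the labels' protocols). Spots were read with Agilent Feature Extraction 10.5.1.1, per the file headers. The deposited files give mean intensity and median local background intensity per spot, not normalized, and a log10 ratio of red over green from processed signals (LOWESS factor 0.25, per the file headers). The series table equalled that log10 ratio (largest difference 0, median 0 on each array), which served as an alternative.

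Intensities were corrected with normexp (offset 50), fitted over unmarked spots, and loess-normalized (span 0.3, control spots at weight 0) in limma 3.58.1 (R 4.3.3; data.table package, version 1.17.8). The fit over unmarked spots was adopted with the counts under both fits known. Control spots and spots marked as outliers (178 to 289 of 45018 per array) were left out, and spots of a probe were averaged. Spots whose local background alone was marked as a population outlier were kept, unlike under an alternative added after seeing the data. Of 27720 probes well above background on all arrays of at least 1 RNA, 27701 had values on all arrays. They were fitted with 1 coefficient per group (lmFit, eBayes, 2 residual and 4.9 prior degrees of freedom). Ratios over ES cells were tested against 0, which leaves out most of the ES cells' own spread. A gene of a list is its brightest tested probe. Names came from RefSeq through the accession for 24375 probes and from the array otherwise. The steps were tested on simulated data.

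The members and lists were chosen with earlier results of these data known. All probes of the members are accounted for. Of each pathway sublist, the called genes with the largest rise and fall in each comparison were named, with Igf2, Igf2r and Grb10 always. Alternatives were other background, normalization and filter settings, 1 value per gene, a replicate block and leaving out each array. Replicate numbers were taken as names only: same-numbered MEF and iPS arrays deviated with r = -0.11. The number of arrays limits the precision.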

Additional observations from a re-analysis of the deposited data

Results flagged for a closer look

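For 3 probes a called rise in MEFs stood against a called fall in iPS cells, both over ES cells, and the difference between the changes was called as well by limma. Probes whose changes had opposite signs without both being called, such as Igf1r probes A, B and C and Irs1 probe A, are not among them. For Irs1 probe B, iPS over ES minus MEF over ES was -6.91 (log2, adjusted p = 2.82e-09), with 1.24 and 1.22 on the MEF arrays and -5.66 and -5.70 on the iPS arrays. For Igfbp5 probe B it was -4.95 (adjusted p = 8.06e-09), with the iPS signal above background on 1 of 2 arrays. For the Igfbp7 probe it was -5.09 (adjusted p = 8.68e-09), with an ES level that differed by 1.99 between the MEF and the iPS arrays. Both changes are taken against the same ES line. The groups held 2 arrays each, too few to look for single arrays that stand apart.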

How the results depend on the processing

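No called ratio of a member changed sign under any alternative; of 54 member ratios, 26 kept their side of the threshold under all alternatives run and 28 changed side under at least 1. With normexp fitted over all spots, calls ended for 19 ratios, and with outlier spots kept for 16; the number of probes called in MEFs over ES cells was then 0 and 1 higher (main 6) and 0 and 1 lower (main 4), and in iPS cells over MEFs 0 higher under the first (main 1; 1 at an unadjusted p under 0.05) and 7 lower under both (main 12). Pathway genes counted 0 and 2 higher (main 13) and 0 and 0 lower (main 8; 4 and 4 at an unadjusted p under 0.05) in MEFs over ES cells, 3 and 3 higher in iPS cells over ES cells (main 5), and 2 and 2 higher (main 7) and 5 and 5 lower (main 15) in iPS cells over MEFs. The deposited log10 ratio, turned to log2, added calls at 8 ratios and gave 13 pathway genes lower in MEFs and 8 higher in iPS cells over ES cells. Median centring also gave 8 there, and added calls for Igf1r probe B and Irs1 probe A in MEFs over ES cells; it moved the median of all probes to 0.16 in MEFs and 0.14 in iPS cells and the share of higher among all calls from 50.3% to 69.6% and from 42.7% to 62%. The filter on both channels left 11 member probes, 3 of them higher in MEFs over ES cells. With 1 probe per gene or the mean over probes, 9 genes were tested, with 2 and 2 lower in MEFs over ES cells, 6 and 6 lower in iPS cells over ES cells (main 11) and 7 and 6 lower in iPS cells over MEFs, and the mean gave 3 pathway genes higher in iPS cells over ES cells. Leaving out spots with a marked local background left Igfbp2 untested and 0 probes higher in iPS cells over MEFs (0 at an unadjusted p under 0.05). The cause of these changes was not tested, beyond the smaller number of probes or genes in the filtered and per-gene settings. Without 1 array, a fit that assumes the lone array of a group to vary like the other group, member counts ranged from 6 to 7 higher and 4 to 4 lower in MEFs over ES cells, and 0 to 0 higher and 11 to 11 lower in iPS cells over ES cells. They were 1 to 1 higher and 12 to 12 lower in iPS cells over MEFs. Pathway counts ranged from 12 to 14 and 8 to 9, 5 to 5 and 9 to 9, and 6 to 8 and 14 to 15. The replicate block changed no member call and left 3486 higher and 3444 lower probes in MEFs over ES cells and 4218 higher and 4875 lower in iPS cells over MEFs; crossing the replicate numbers, an alternative added after seeing the data, gave 4218 and 4875 as well. Signal over background limited Igf1 and Insr in ES and iPS cells, and Irs1 probe A, Igfbp3 probe C and Igfbp5 probe A in iPS cells.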
